A study of Mus musculus with 27 samples.

Results

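The genes described here encode subunits of the complexes that methylate lysine 4 of histone H3 (H3K4), and enzymes that remove the methyl groups. They are 8 of the 20156 genes in the deposited expression tables and were taken by gene symbol: Wdr5, Ash2l, Rbbp5, Dpy30, Cxxc1, Kdm1a, Kdm5a and Kdm5b. Each was measured as RNA in 6 libraries, and the reads of histone H3 and of 3 of its marks were counted within 1000 bp of its transcription start site (TSS). All 8 genes were found in both tables, and all 8 had enough RNA to be tested. In mm9, Wdr5 spans chr2:27370667-27392055, Rbbp5 chr1:134373944-134402242, Kdm5a chr6:120314117-120394592 and Kdm5b chr1:136456755-136529455 on the plus strand. Ash2l spans chr8:26927342-26951251, Dpy30 chr17:74698814-74723284 and Kdm1a chr4:136106448-136158638 on the minus strand, and Cxxc1 lies on chromosome 18.

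The samples are the 3 cell types of a mouse reprogramming series: mouse embryonic fibroblasts (MEFs), partly reprogrammed cells (pre-iPSCs) and induced pluripotent stem cells (iPSCs). The MEFs came from day 13.5 embryos carrying 1 copy of an Oct4-GFP transgene, which reports Oct4 activity, and of a Rosa26 allele, on a background labelled CBA/CaJ and C57BL/6J. The study's methods add that the mothers were 129Sv/Jae. Pre-iPSCs and iPSCs were made from such MEFs with the Yamanaka factors delivered by retrovirus. They are 2 stable pre-iPSC clones and the iPSCs obtained from them, so the cells of a clone share 1 origin, and which clone a library came from is not stated. Both were grown for 6 passages on a layer of mitomycin-treated MEFs, which can leave fibroblast RNA in the samples. RNA, H3, H3K4me3 and H3K27me3 were measured in 2 samples per cell type, and H3K9me3 in 1. The study calls the repeats biological replicates, without saying which culture, litter or clone each came from, and p-values measure the spread between these samples.

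Methylation of H3K4 is written by large complexes. Their catalytic subunit is a SET-domain enzyme of the MLL or SET1 family, and it works poorly alone. WDR5, RBBP5, ASH2L and DPY30 form the core module that every MLL and SET1 enzyme binds, and CXXC1 (CFP1) brings the SET1 complexes to unmethylated CpG dinucleotides. The mark is removed by KDM1A (LSD1), which acts on mono- and dimethylated H3K4, and by the KDM5 enzymes, which act on di- and trimethylated H3K4. Trimethylated H3K4 (H3K4me3) lies around the start of active genes, and these genes can carry the mark they help to set.

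The letters around the start sites introduce a difference that recurs in the reads. The 200 bases before the TSS are printed for the genes whose RNA differed between iPSCs and MEFs in the test described later in the text, and for Dpy30, at the TSS of the tables and at a second start inside the gene. They were read from the mm9 genome, the build of the files, are written 5′ to 3′ on the strand of the gene, and have every CpG in capitals. The stretches are chr8:26951252-26951451 (minus strand) for Ash2l, chr2:27370467-27370666 (plus strand) for Wdr5, chr4:136158639-136158838 (minus strand) for Kdm1a and chr1:136456555-136456754 (plus strand) for Kdm5b. For Dpy30 they are chr17:74723285-74723484 and chr17:74715735-74715934, both on the minus strand.
Ash2l: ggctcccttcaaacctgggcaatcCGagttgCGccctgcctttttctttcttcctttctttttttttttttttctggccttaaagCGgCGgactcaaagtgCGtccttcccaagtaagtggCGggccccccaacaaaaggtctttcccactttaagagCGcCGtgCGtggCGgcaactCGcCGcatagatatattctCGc
Wdr5: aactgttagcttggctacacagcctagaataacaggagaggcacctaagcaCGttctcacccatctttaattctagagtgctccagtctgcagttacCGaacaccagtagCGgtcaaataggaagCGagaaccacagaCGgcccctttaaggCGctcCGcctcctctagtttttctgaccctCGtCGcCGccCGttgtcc
Kdm1a: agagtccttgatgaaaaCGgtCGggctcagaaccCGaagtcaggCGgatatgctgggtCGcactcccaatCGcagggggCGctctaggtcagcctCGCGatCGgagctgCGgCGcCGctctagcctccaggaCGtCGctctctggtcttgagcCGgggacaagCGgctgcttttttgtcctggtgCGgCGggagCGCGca
Kdm5b: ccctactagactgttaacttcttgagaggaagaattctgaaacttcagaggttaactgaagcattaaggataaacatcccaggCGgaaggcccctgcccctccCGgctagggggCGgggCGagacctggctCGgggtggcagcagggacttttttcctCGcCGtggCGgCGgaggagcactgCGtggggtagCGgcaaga
Dpy30, TSS of the tables: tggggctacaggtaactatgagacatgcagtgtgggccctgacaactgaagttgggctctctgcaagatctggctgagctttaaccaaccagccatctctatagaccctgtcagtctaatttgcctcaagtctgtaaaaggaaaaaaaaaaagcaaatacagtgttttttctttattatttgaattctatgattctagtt
Dpy30, second start: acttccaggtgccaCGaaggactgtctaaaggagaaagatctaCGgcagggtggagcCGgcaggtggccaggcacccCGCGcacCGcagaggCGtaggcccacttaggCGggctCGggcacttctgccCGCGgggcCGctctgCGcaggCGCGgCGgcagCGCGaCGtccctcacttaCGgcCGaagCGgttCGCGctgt

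Every member but Dpy30 held at least as many CpG before its TSS as the median promoter. The 200 bases before the TSS of Dpy30 in the tables held 0 CpG, against a median of 9 over all 20156 promoters. The other members held between 9 (Rbbp5) and 23 (Cxxc1), with 13 at Ash2l, 11 at Wdr5, 11 at Kdm5b, 17 at Kdm5a and 21 at Kdm1a. Over 1000 bp either side of the TSS, the ratio of observed to expected CpG was 0.174 at Dpy30 and between 0.587 (Wdr5) and 0.838 (Kdm1a) at the others, with a median of 0.502 over all promoters. GENCODE annotates another start of Dpy30, at position 74715734 of chromosome 17, 7550 bp downstream. It begins a transcript with a first exon of its own (74715560 to 74715734), which lies in the first intron of the transcript in the tables. At this second start the same count was 24 CpG and the ratio 0.773. Searched on both strands of the same 200 bases, the GC box GGGCGG was found at Wdr5 and Kdm5b, and 43.9% of all promoters hold it. CCAAT was found at Kdm1a, and 31.2% of all promoters hold it. The E-box CACGTG and the TATA box TATAAA were found at none of the members, and 6.00% and 9.67% of all promoters hold them. No promoter of a member held more than 1 match, so matches did not overlap. Distant protein-coding starts are not particular to Dpy30. Relative to the TSS of the tables, GENCODE also has them at -6915 bp for Ash2l, 4614 bp for Wdr5, and 25565 and 34116 bp for Kdm1a. Marks within 1000 bp of those starts were not counted.

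Some libraries stood apart. In replicate 1 of iPSCs, chromosome 8 held between 7.45% and 7.78% of the reads in all 4 ChIP libraries, against 5.16% to 5.79% in the other 17 ChIP libraries. Ash2l lies on this chromosome. In H3, replicate 1 of pre-iPSCs and replicate 1 of iPSCs had 2.61% and 1.74% of their unique reads within 1000 bp of the TSSs, summed over genes, and the other 4 libraries 0.898% to 1.01%. MNase digestion, by amount and duration, was not the same for MEF chromatin as for that of the other cell types, so digestion and cell type cannot be told apart in ChIP comparisons with MEFs. The cell types were checked against markers in the RNA. The 8 fibroblast markers summed to 6338 and 11479 FPKM in MEFs and to between 287 and 767 in the other 4 libraries. The 8 pluripotent markers summed to 0.0233 and 0.904 FPKM in MEFs, where Nanog and Zfp42 were listed at 0. They summed to 632 and 3524 FPKM in pre-iPSCs and 2282 and 2179 in iPSCs, so this sum did not separate pre-iPSCs from iPSCs. Most of it in pre-iPSCs was Pou5f1, at 378 and 3184 FPKM, and Tdgf1, at 228 and 333, and Pou5f1 differed widely between the replicates. Pou5f1 encodes Oct4, which is among the Yamanaka factors. Its FPKM does not tell RNA of the introduced copies from that of the cells' own gene. The other 6 markers were lower in both pre-iPSC libraries than in either iPSC library, such as Esrrb, at most 0.0335 FPKM in pre-iPSCs and above 52 in iPSCs.

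The level of RNA differed widely among the 8 genes. FPKM is a level per length of transcript, scaled to the depth of the library, so it can be compared between genes. Averaged over the 2 MEF libraries, Dpy30 had 94.3 FPKM, Ash2l 22.6, Cxxc1 22.2, Kdm1a 22.2, Wdr5 15.5, Kdm5b 10.7, Rbbp5 7.82 and Kdm5a 5.26. The replicates of Ash2l, Cxxc1 and Kdm1a overlapped, as did those of Wdr5 and Kdm5b. Within each MEF library, however, Wdr5 was above Kdm5b, at 20.6 against 12.3 and 10.3 against 9.01 FPKM. The differences between these genes were not tested. In iPSCs the means were 277 FPKM for Dpy30, 116 for Ash2l, 51.6 for Kdm1a, 48.1 for Wdr5, 41.6 for Kdm5b, 20.6 for Cxxc1, 13.7 for Rbbp5 and 4.83 for Kdm5a. Here Ash2l came after Dpy30, its replicates far apart, and those of Kdm1a and Wdr5 overlapped. Dpy30 was above the other 7 genes in all 6 libraries, and Kdm5a was below them in all but replicate 2 of pre-iPSCs, where Rbbp5 was lowest.

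**Figure D1:**
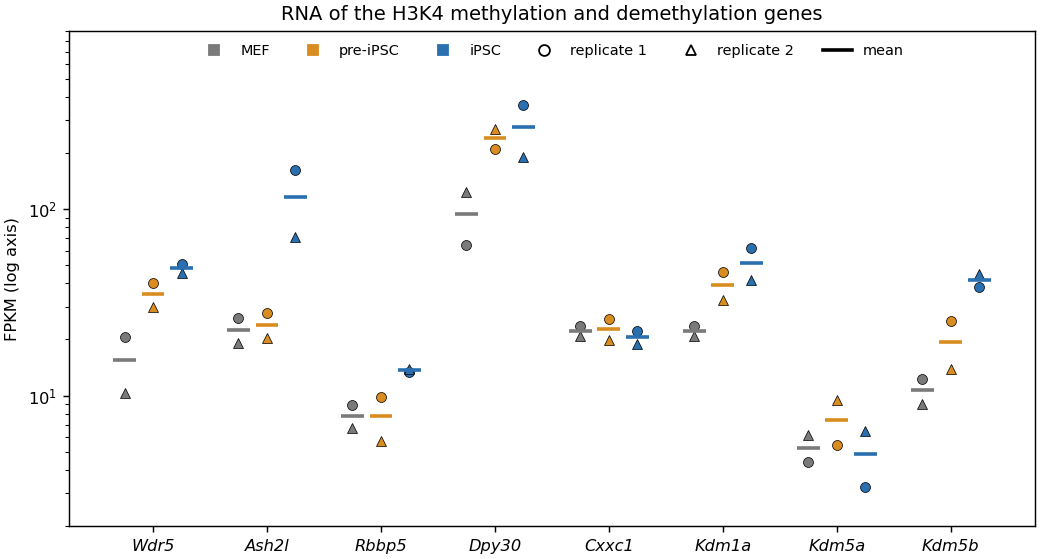
FPKM on a log axis for each of the 8 genes in MEFs (grey), pre-iPSCs (orange) and iPSCs (blue), with replicate 1 as a circle, replicate 2 as a triangle and the mean as a bar. Ash2l stood at 162 and 70.6 FPKM in iPSCs against 19.1 to 27.6 in the other 4 libraries, while Cxxc1 stayed between 19.0 and 25.8.

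Between MEFs and iPSCs, 4 of the 8 genes rose and 0 fell: Ash2l, Kdm5b, Wdr5 and Kdm1a. They include core subunits of the methyltransferases and demethylases alike. The test was limma on log2(FPKM + 1), with the deposited table as a term and the adjusted p taken over all 12401 genes tested, and a gene passed at an adjusted p below 0.05. Over all genes, 10.4% were called higher and 15.6% lower in iPSCs than in MEFs. The median difference was 1.35 on the log2 scale over the 8 members and -0.14 over all genes. Between MEFs and pre-iPSCs 0 of the 8 passed with limma, and 2, Wdr5 and Dpy30, had an unadjusted p below 0.05. In that comparison 7.39% of all genes were called higher in pre-iPSCs and 9.0% lower, and 3892 of the 12401 had an unadjusted p below 0.05. Ash2l was the 1 member that passed at the second step, at which iPSCs had 3.91% of all genes called higher than pre-iPSCs and 4.71% called lower. In a further contrast, pre-iPSCs against the mean of MEFs and iPSCs, 0 of the 8 passed with limma, and 8.44% of all genes were called in either direction. At an unadjusted p below 0.05 that contrast counted 1 member, Ash2l, lower in pre-iPSCs by 1.02 ± 0.32 (SE, limma adjusted p = 0.0994). Over all 12401 genes it counted 2880.

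Ash2l, the subunit that with RBBP5 activates the catalytic SET domain, had 26.1 and 19.1 FPKM in replicates 1 and 2 of MEFs. In pre-iPSCs it had 27.6 and 20.3 FPKM, and in iPSCs 162 and 70.6. Both iPSC libraries were above the other 4, which overlapped. The difference between iPSCs and pre-iPSCs was 2.13 ± 0.37 on the log2(FPKM + 1) scale (SE, limma adjusted p = 0.0148), and that between iPSCs and MEFs 2.21 ± 0.37 (limma adjusted p = 0.00604). Within the tables, the FPKM of iPSCs was 5.87 and 3.47 times that of pre-iPSCs. From MEFs to pre-iPSCs the difference was 0.08 ± 0.37.

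Chromosome 8, on which Ash2l lies, had more RNA in iPSCs in 1 of the tables. Over the 672 tested genes of chromosome 8, the median difference between iPSCs and pre-iPSCs was 0.37 in the table of replicates 1, where the medians of the other 18 autosomes lay between -0.33 and -0.03. In the table of replicates 2 it was -0.00, among other medians of -0.13 to 0.11. The difference of Ash2l itself was 2.51 in the first table and 1.75 in the second. With the median of each chromosome in each library removed, an alternative added after seeing the data, the difference of Ash2l was 1.93 from pre-iPSCs to iPSCs (limma adjusted p = 0.015) and 2.11 from MEFs to iPSCs (limma adjusted p = 0.00508). Where a library is left out, here and later, its cell type has 1 library, which is assumed to vary like the others. Without replicate 1 of iPSCs the differences were 1.75 and 1.83 and did not pass (limma adjusted p = 0.133 and 0.0676). Leaving out any other pre-iPSC or iPSC library also lost the call between iPSCs and pre-iPSCs, at adjusted p between 0.0734 and 0.165. Whether replicate 1 of RNA and replicate 1 of ChIP are the same cells is not stated, and the part of the extra chromosome 8 reads in the level of Ash2l in replicate 1 was not tested.

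**Figure D2:**
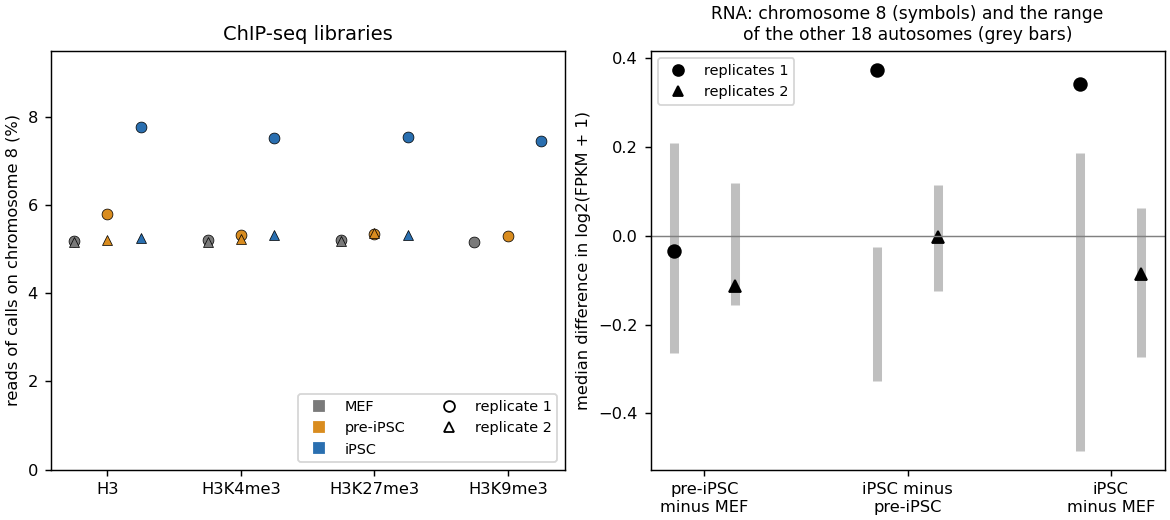
Left, the percent of reads in calls that lie on chromosome 8 in each ChIP library, where replicate 1 of iPSCs is at 7.45% to 7.78% and the others are at 5.16% to 5.79%. Right, the median difference in log2(FPKM + 1) over chromosome 8 for replicates 1 (circles) and replicates 2 (triangles), with the range of the medians of the other 18 autosomes as grey bars; only the 2 comparisons that use replicate 1 of iPSCs have chromosome 8 above the bar.

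Wdr5, the subunit that docks the catalytic enzyme to the module, had 20.6 and 10.3 FPKM in MEFs, 40.3 and 30.0 in pre-iPSCs, with 51.0 and 45.3 in iPSCs. The 3 cell types did not overlap, and in both tables the order was MEFs, pre-iPSCs, iPSCs. The difference between iPSCs and MEFs was 1.65 ± 0.36 (SE, limma adjusted p = 0.0156). Without replicate 1 or replicate 2 of iPSCs it was 1.90 and 1.40 and did not pass (limma adjusted p = 0.0725 and 0.109). Most of it lay between MEFs and pre-iPSCs, at 1.19 ± 0.36, which did not pass over all genes (limma adjusted p = 0.0635) but passed after quantile normalization (1.36, limma adjusted p = 0.0404). Without replicate 1 of MEFs it was 1.52 (limma adjusted p = 0.0133), with the spread taken from the other cell types. Without replicate 2 of MEFs or either pre-iPSC library it did not pass, at limma adjusted p of 0.198, 0.374 and 0.519.

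Rbbp5, which binds the catalytic subunit together with ASH2L, was the least abundant core subunit in all 6 libraries. It had 8.94 and 6.69 FPKM in MEFs, 9.87 and 5.72 in pre-iPSCs, then 13.4 and 13.9 in iPSCs. Both iPSC libraries were above the other 4, yet the difference between iPSCs and MEFs, 0.74 ± 0.37, did not pass (limma adjusted p = 0.182).

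Dpy30, the small subunit that binds ASH2L, had 64.4 and 124 FPKM in MEFs, 211 and 269 in pre-iPSCs, with 364 and 190.3 in iPSCs. Both MEF libraries were below the other 4, and pre-iPSCs and iPSCs overlapped. The difference between pre-iPSCs and MEFs was 1.40 ± 0.53 (SE, limma adjusted p = 0.117), and that between iPSCs and MEFs 1.55 ± 0.53 (limma adjusted p = 0.0692). Neither passed. After quantile normalization they were 1.93 and 2.17 and both passed (limma adjusted p = 0.0138 and 0.00669). Against replicate 1 of MEFs alone they were 2.02 and 2.16 and passed (limma adjusted p = 0.00777 and 0.00321), with the spread taken from the other cell types. Against replicate 2 of MEFs alone they were 0.79 and 0.93 and did not (limma adjusted p = 0.33 and 0.214).

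The core subunits were also set against Rbbp5 of the same library. The FPKM of Ash2l was 2.91 and 2.85 times that of Rbbp5 in MEFs, 2.80 and 3.55 times in pre-iPSCs, then 12.1 and 5.07 times in iPSCs. For Wdr5 the MEF libraries gave 2.31 and 1.54, the pre-iPSC libraries 4.08 and 5.24, and the iPSC libraries 3.80 and 3.26. Wdr5 was at its highest relative to Rbbp5 in pre-iPSCs and Ash2l in iPSCs, in both replicates. For Dpy30 the MEF libraries gave 7.20 and 18.6, the pre-iPSC libraries 21.4 and 46.9, and the iPSC libraries 27.1 and 13.7. Its highest ratio was in iPSCs in replicate 1 and in pre-iPSCs in replicate 2, and its replicates were far apart in every cell type. These ratios are descriptions with no test, 2 values per cell type.

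Cxxc1, the CpG-binding subunit of the SET1 complexes, was the steadiest of the 8 genes. It had 23.7 and 20.8 FPKM in MEFs, 25.8 and 19.9 in pre-iPSCs, with 22.2 and 19.0 in iPSCs. The cell types overlapped, and the differences were 0.03 ± 0.33, -0.14 ± 0.33 and -0.11 ± 0.33 from MEFs to pre-iPSCs, from pre-iPSCs to iPSCs and from MEFs to iPSCs (SE, limma adjusted p of 0.973, 0.874 and 0.842). The difference between iPSCs and MEFs turned to 0.22 after quantile normalization.

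Kdm1a, the flavin-dependent demethylase that works in complexes with the CoREST proteins and histone deacetylases, had 23.6 and 20.8 FPKM in MEFs. It had 46.2 and 32.6 in pre-iPSCs, then 61.6 and 41.5 in iPSCs. Both MEF libraries were below the other 4, and pre-iPSCs and iPSCs overlapped. The difference between iPSCs and MEFs was 1.15 ± 0.34 (SE, limma adjusted p = 0.0428), close to the threshold. Without the table term, which is also the block of replicate numbers, the adjusted p was 0.0667. It was between 0.0957 and 0.163 when any library other than replicate 2 of MEFs was left out.

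Of Kdm5b (JARID1B) and Kdm5a (JARID1A), which demethylate the same substrates, Kdm5b rose between MEFs and iPSCs and Kdm5a did not pass; the difference between the genes was not tested. Kdm5b had 12.3 and 9.01 FPKM in MEFs, 25.05 and 13.9 in pre-iPSCs, then 38.1 and 45.1 in iPSCs. The 3 cell types did not overlap. Its difference between iPSCs and MEFs was 1.88 ± 0.38 (SE, limma adjusted p = 0.0124), and those of the steps before and after the pre-iPSC stage were 0.77 ± 0.38 and 1.11 ± 0.38, neither of which passed (limma adjusted p = 0.221 and 0.139). Kdm5a had 4.40 and 6.13 FPKM in MEFs, 5.45 and 9.43 in pre-iPSCs, with 3.22 and 6.45 in iPSCs. The cell types overlapped, although in both tables Kdm5a was highest in pre-iPSCs. Its difference between iPSCs and MEFs was -0.15 ± 0.36 (limma adjusted p = 0.806). The steps before and after the pre-iPSC stage were 0.40 ± 0.36 and -0.55 ± 0.36, and neither passed (limma adjusted p = 0.514 and 0.463). Within a library, the FPKM of Kdm5b was 2.81 and 1.47 times that of Kdm5a in MEFs, 4.59 and 1.47 times in pre-iPSCs, then 11.8 and 6.99 times in iPSCs.

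Without replicate 1 of iPSCs, 0 of the 4 genes that rose from MEFs to iPSCs passed, and without replicate 2 of iPSCs 1 passed. The differences stayed positive, at 1.83 and 2.59 for Ash2l, 2.30 and 1.45 for Kdm5b, 1.90 and 1.40 for Wdr5, and 1.04 and 1.27 for Kdm1a. Over all genes the calls fell from 3219 to 655 and 1160. In bulk samples, fewer cells of a type and less RNA per cell cannot be told apart. Markers of dividing cells summed to more in iPSCs than in MEFs. Their sum over 8 genes was 467 and 312 FPKM in MEFs, 645 and 392 in pre-iPSCs, with 830.1 and 655 in iPSCs. In iPSCs 3 of the 8 were called higher than in MEFs, as were 10.4% of all genes, and 0 lower. Not all 8 rose. Cdk1 had 40.9 and 52.6 FPKM in MEFs and 36.5 and 34.3 in iPSCs. Mki67 had 49.2 and 5.70 in MEFs and 20.3 and 28.2 in iPSCs. The part of dividing cells in the result was not tested.

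**Figure D3:**
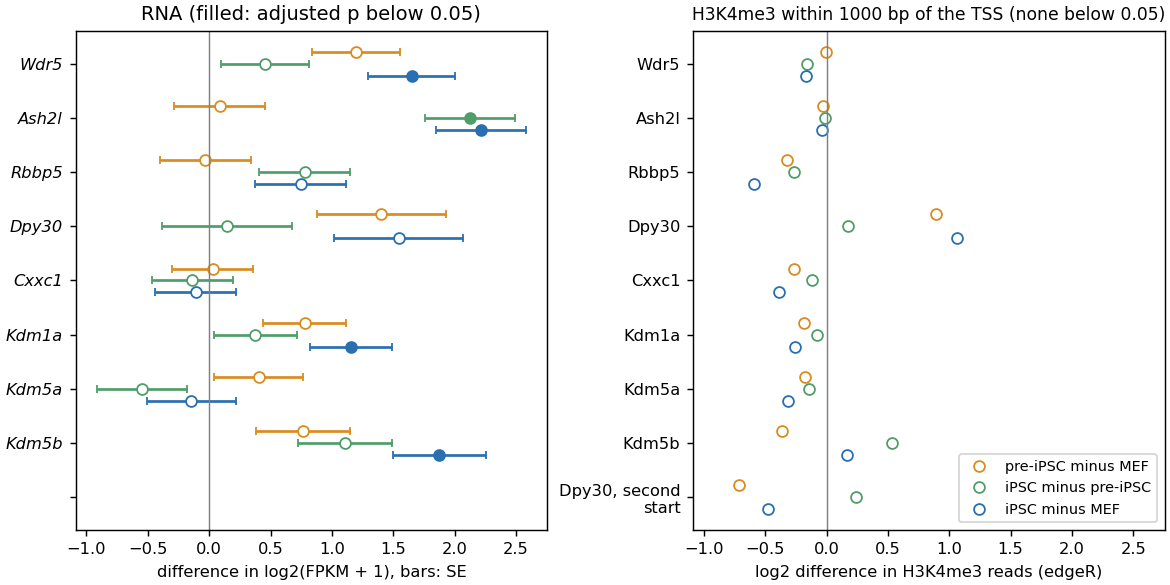
Left, differences in log2(FPKM + 1) with their SE for the 8 genes in the 3 comparisons, filled where the adjusted p is below 0.05. Right, the log2 differences of H3K4me3 reads within 1000 bp of the TSS, where no member passed; the last line gives Dpy30 at its second start. Ash2l, at 2.21 for RNA and -0.04 for H3K4me3 between iPSCs and MEFs, shows how the panels differ.

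The other genes of the pathway were counted by lists. Of 23 other methyltransferases and partners in the tables, 1 was called higher in pre-iPSCs than in MEFs, 0 differed between iPSCs and pre-iPSCs, and 2 were lower in iPSCs than in MEFs. Setd1b was not analysed here. Of 14 other demethylases and partners, 1 was higher in pre-iPSCs than in MEFs. Between iPSCs and pre-iPSCs 1 was higher and 1 lower, and 2 were higher in iPSCs than in MEFs. Of 14 readers of the mark, 0 differed in the first and second comparison, and 1 was lower in iPSCs than in MEFs. Over all genes tested, 7.39% were called higher and 9.0% lower between pre-iPSCs and MEFs, 3.91% and 4.71% between iPSCs and pre-iPSCs, and 10.4% and 15.6% between iPSCs and MEFs. With 0 to 2 calls per list and direction, nothing particular to a list is read from these counts. The median differences between iPSCs and MEFs were 0.12, 0.28 and 0.43 for the 3 lists, beside -0.14 over all genes.

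Among the 7 listed genes that passed with at least a 2-fold change, Rcor2 and Hdac1 work with KDM1A. Rcor2, a CoREST protein that binds KDM1A, had 4.72 and 2.02 FPKM in MEFs, 10.2 and 15.8 in pre-iPSCs, then 60.4 and 59.5 in iPSCs. It rose at both steps, by 1.72 ± 0.43 and 2.15 ± 0.43 (SE, limma adjusted p = 0.0361 and 0.026). Hdac1, a deacetylase of the same complex, rose by 1.16 ± 0.35 between MEFs and iPSCs (limma adjusted p = 0.0463), from 61.6 and 44.9 to 143 and 98.6 FPKM. The Y-linked demethylase Kdm5d fell by 1.70 on the log2 scale from pre-iPSCs to iPSCs (limma adjusted p = 0.0263), from 4.09 and 4.12 to 0.660 and 0.483 FPKM. Lower in iPSCs than in MEFs were the demethylase and reader Phf2 (-1.45), the host cell factor Hcfc2 (-1.35) and Wdr5b (-1.01), a WDR5-like protein with under 2 FPKM in all 6 libraries (limma adjusted p of 0.0394, 0.0305 and 0.0447). Smyd1 was higher in pre-iPSCs than in MEFs by 1.67, with 4.65 and 1.02 FPKM against 0.0598 and 0.0694 (limma adjusted p = 0.031).

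The patterns of the members over the 6 libraries were compared by the Pearson correlation of log2(FPKM + 1). This is a description over 6 points, 2 of each cell type, and the libraries of a table share their processing. Among members the highest value was 0.929 for Wdr5 and Kdm1a, followed by 0.904 for Wdr5 and Kdm5b. Kdm5a had negative values with 6 of the other 7 genes, down to -0.640 with Rbbp5. Against the 11410 genes that averaged 1 FPKM or more, values above 0.9 were common for the genes that rose (553 genes for Wdr5, 443 for Kdm1a, 384 for Ash2l and 382 for Kdm5b) and rare for Kdm5a (24) and Cxxc1 (43). The genes most like Wdr5 were Gfm2 and Sart3 (both 0.994), and those most like Kdm5b were Dhdh (0.995) and Atf7ip2 (0.993). For Kdm1a they were Trub2 (0.997) and Zfp13 (0.996), and for Ash2l a gene whose symbol the tables give as a date and Plekhb1 (both 0.996). Odc1 (0.993) and Naa35 (0.986) were nearest to Rbbp5, Rg9mtd3 (0.995) and Nipsnap1 (0.991) to Dpy30, Slc35a4 (0.985) and Lsm12 (0.975) to Cxxc1, and Ipp (0.977) and Hmgn5 (0.970) to Kdm5a.

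At the level of chromatin, the starts of 7 of the 8 genes had at least 21 H3K4me3 reads in every library, and Dpy30 had few at the TSS of the tables. Levels are given as RPKM, the reads per kb of window scaled to the unique reads of the library. Within 1000 bp of the TSS, Wdr5, Ash2l, Rbbp5, Cxxc1, Kdm1a, Kdm5a and Kdm5b had between 0.682 and 2.98 RPKM, from 21 to 88 reads. The median over all promoters was between 0.812 and 1.22 RPKM in the 6 libraries. Dpy30 had 0.203 and 0.255 RPKM in MEFs, 0.337 and 0.325 in pre-iPSCs, with 0.372 and 0.395 in iPSCs, from 6 to 12 reads. Its RNA was above that of the other members in all libraries, and between 9.47% and 20.5% of all promoters had fewer H3K4me3 reads.

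Inside Dpy30, H3K4me3 averaged over the 6 libraries was highest around its second start. Within 1000 bp of that start it had 2.40 and 2.04 RPKM in MEFs, 1.07 and 1.01 in pre-iPSCs, then 1.46 and 1.05 in iPSCs, from 31 to 71 reads. These values are in the range of the other 7 genes. In 1-kb bins along the gene and 5 kb either side, the bin that starts 7000 bp downstream of the TSS of the tables averaged 1.59 RPKM over the 6 libraries, against a median of 0.343 RPKM over the 35 bins. The bin with more, at 1.68 RPKM, lies past the end of the gene. In both MEF libraries and replicate 1 of iPSCs, the bin at 7000 bp was the highest inside the gene. In the others a nearby bin was higher. It was the bin at 9000 bp in replicate 1 of pre-iPSCs (1.17 against 1.10 RPKM) and replicate 2 of iPSCs (1.51 against 0.724). In replicate 2 of pre-iPSCs it was the bin at 6000 bp (1.04 against 0.845). At each of the other 7 genes the bin with the highest average touched the TSS. The values at the second start were counted after the reads had been seen to lie there.

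**Figure D4:**
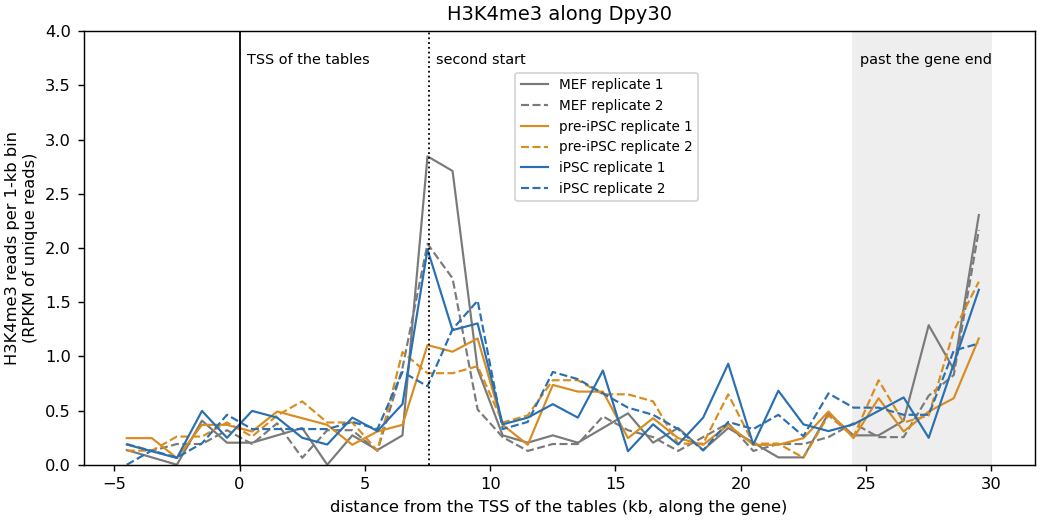
H3K4me3 in 1-kb bins along Dpy30, as RPKM of unique reads against the distance in kb from the TSS of the tables, 1 line per library (solid for replicate 1, dashed for replicate 2). The libraries stay near the median of 0.343 RPKM at the TSS of the tables. They rise around the second start, 7550 bp downstream, where replicate 1 of MEFs is highest.

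No member passed the test of H3K4me3 between cell types. With edgeR's quasi-likelihood test over 17700 promoters, 0 of 8 members passed in each comparison. Over all promoters 3.85% were called between pre-iPSCs and MEFs, 0.0% between iPSCs and pre-iPSCs, 13.7% between iPSCs and MEFs, and 0.254% for pre-iPSCs against the mean of the others. At an unadjusted p below 0.05 the members counted 0, 0, 2 and 0, and all 17700 promoters 3466, 1581, 5285 and 1568, with edgeR. DESeq2 called 0 of the members it gave an adjusted p, which were 7 in both comparisons with MEFs, where Dpy30 had none, and 8 in the others. Between iPSCs and pre-iPSCs, DESeq2 called 0 of all promoters. The members' differences between iPSCs and MEFs lay between -0.59 (Rbbp5) and 1.06 (Dpy30 at the TSS of the tables), with a median of -0.21 beside -0.03 over all promoters.

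At the TSS of the tables, Rbbp5 was nearest to the threshold. It had 2.98 and 1.66 RPKM of H3K4me3 in MEFs, 1.50 and 1.30 in pre-iPSCs, with 1.37 and 1.02 in iPSCs. Both MEF libraries were above the other 4, while its RNA was higher in both iPSC libraries than elsewhere. The difference between iPSCs and MEFs was -0.59 (edgeR adjusted p = 0.0959). It passed with unique reads and no TMM (-0.95, edgeR adjusted p = 0.0289), a scaling under which the median of all promoters was -0.38, and against replicate 1 of MEFs alone, the higher of the pair, with the spread taken from the other cell types (-0.83, edgeR adjusted p = 0.0468). Against replicate 2 of MEFs alone it was -0.29 (edgeR adjusted p = 0.625). With unique reads and no TMM, 3212 of 17644 promoters were called between iPSCs and MEFs. The share of unique reads near TSSs, summed over genes, was 4.91% and 3.89% in MEFs and between 3.17% and 3.55% in the other 4 libraries.

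At Ash2l, whose RNA rose most, H3K4me3 was 2.20 and 1.81 RPKM in MEFs, 1.78 and 1.23 in pre-iPSCs, then 2.14 and 0.921 in iPSCs. The iPSC replicates enclosed every other value but 1, and the higher was the library with more reads on chromosome 8. Its differences were -0.03, -0.01 and -0.04 in the 3 comparisons (edgeR adjusted p of 0.963, 0.993 and 0.934). Kdm5b had 1.59 and 1.02 RPKM in MEFs, 0.858 and 0.682 in pre-iPSCs, with 1.37 and 0.921 in iPSCs. Both pre-iPSC libraries were below the other 4, and the difference between iPSCs and pre-iPSCs, 0.53, did not pass (edgeR adjusted p = 0.612).

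Wdr5 had 2.07 and 2.23 RPKM in MEFs, 1.62 and 1.69 in pre-iPSCs, then 1.52 and 1.51 in iPSCs. Both MEF libraries were above the other 4, as was the median over all promoters. Among all promoters Wdr5 had more reads than 81.1% and 97.6% in MEFs, 94.2% and 98.3% in the pre-iPSC libraries, and 89.3% and 96.3% in those of iPSCs, which overlapped. With TMM scaling its difference between iPSCs and MEFs was -0.17 (edgeR adjusted p = 0.673). Cxxc1, Kdm1a and Kdm5a gave -0.39, -0.26 and -0.32 in the same comparison, with adjusted p between 0.309 and 0.583. At the second start of Dpy30, also counted after seeing the data, the differences were -0.71 between pre-iPSCs and MEFs and -0.47 between iPSCs and MEFs (edgeR adjusted p = 0.0827 and 0.165), opposite in sign to 0.89 and 1.06 at the TSS of the tables.

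**Figure D5:**
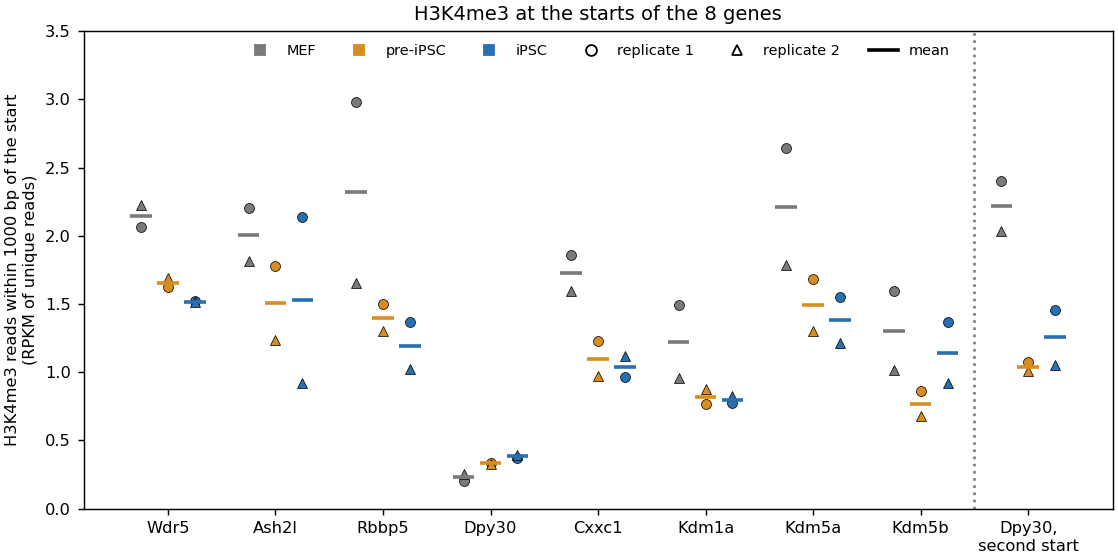
H3K4me3 within 1000 bp of the start, as RPKM of unique reads, for the 8 genes and for the second start of Dpy30, with replicates as symbols and the mean as a bar. Dpy30 stands at 0.203 to 0.395 at the TSS of the tables and at 1.01 to 2.40 at its second start.

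The genes differed in how the mark lay around the TSS. At Kdm1a the median share of its H3K4me3 reads that fell downstream of the TSS, over the 6 libraries, was 82.0%, from 55.6% to 93.3%. At Cxxc1 and Kdm5b the medians were 71.1% and 69.6%, and at Ash2l 47.4%. Over all promoters with at least 20 reads the medians of the libraries lay between 58.3% and 61.8%. At Rbbp5 the strongest H3K4me3 call in the first 300 bp lay at a similar place in 5 of 6 libraries. Its dyad, the centre of the nucleosome, was there between 106 and 116 bp downstream of the TSS, from 3 to 16 reads. The remaining library had it at 178 bp, and the strongest H3 calls of Rbbp5 ranged from 102 to 177 bp. The H3K4me3 calls of Kdm1a were more scattered, from 65 to 282 bp. Those of Ash2l lay at 134 and 127 bp in MEFs, 128 and 281 bp in pre-iPSCs, and 124 and 170 bp in iPSCs. Most calls of Ash2l were thus close together too. H3K4me3 islands are runs of 1-kb windows with 6 reads or more that hold the TSS. They were 6 to 14 kb long at Kdm5a, 6 to 22 kb at Rbbp5, 9 to 21 kb at Ash2l and 3 to 24 kb at Cxxc1. They were 19 to 41 kb at Kdm5b, 11 to 90 kb at Kdm1a and 29 to 97 kb at Wdr5. At Dpy30 they were 0 to 37 kb. The lengths varied widely between libraries and are descriptions. The cut of 6 reads was not set against the surroundings, so a long island need not be a broad domain of the mark. The median 1-kb bin along the gene had 0.466 RPKM at Wdr5, 0.451 at Cxxc1, 0.450 at Kdm1a and 0.415 at Ash2l. It had 0.375 RPKM at Kdm5b, 0.324 at Rbbp5 and 0.278 at Kdm5a.

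Reads of the repressive marks were few at the members, and low over all promoters too, whose medians in the libraries were 0.182 to 0.259 RPKM for H3K27me3 and 0.197 to 0.265 RPKM for H3K9me3. H3K27me3 within 1000 bp of the TSS was between 1 and 10 reads at the 7 genes other than Dpy30, which had 7 to 17 reads (0.209 to 0.478 RPKM). The 17 reads, in replicate 2 of MEFs and replicate 1 of pre-iPSCs, were above 74.0% and 78.1% of promoters, and the 7 reads in replicate 2 of pre-iPSCs and of iPSCs above 44.8% and 39.8%. Only Dpy30 passed the filter on low counts, and it did not pass the test in any comparison, at adjusted p between 0.446 and 0.916. Over the 10407 promoters tested, 8.1% were called between pre-iPSCs and MEFs, 0.798% between iPSCs and pre-iPSCs and 11.2% between iPSCs and MEFs. At its second start Dpy30 had 2 to 6 H3K27me3 reads. H3K9me3 was measured once per cell type. The largest count was 13 reads at Dpy30 in MEFs, or 0.426 RPKM with an exact Poisson 95% interval of 0.227 to 0.729, which covers counting error only. This was above 82.2% of promoters. The other members had 2 to 9 reads in each library.

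Histone H3 around most members followed the libraries that stand apart. At Ash2l the MEF libraries had 0.179 and 0.149 RPKM, the pre-iPSC libraries 0.50 and 0.127, and the iPSC libraries 0.596 and 0.20. Replicate 1 was thus far above replicate 2 in both reprogrammed cell types. The same held for Kdm5a, with 0.566 and 0.154 RPKM in the pre-iPSC libraries and 0.504 and 0.195 in those of iPSCs. The direction was the same for Wdr5, Cxxc1, Kdm1a and Kdm5b. Rbbp5 had 0.292 and 0.162 RPKM in iPSCs, but its pre-iPSC replicates were close, at 0.227 and 0.199. Dpy30 went the other way in pre-iPSCs at the TSS of the tables, with 0.212 and 0.447 RPKM. At its second start, counted after seeing the data, it had 0.412 and 0.165 RPKM in pre-iPSCs, the direction of most members. There its difference between pre-iPSCs and MEFs was 0.07 (edgeR adjusted p = 0.954). The H3 tests that follow used the TSS of the tables. The medians over all promoters were 0.550 and 0.408 RPKM in the libraries that stand apart and 0.204 to 0.238 in the other 4. With edgeR 0 of 8 members passed in each comparison, and 0.0% of 19560 promoters were called in each of them. At an unadjusted p below 0.05, edgeR counted 0 members in each, and 373, 105 and 296 promoters from MEFs to pre-iPSCs, from pre-iPSCs to iPSCs and from MEFs to iPSCs. DESeq2 called 0 of 8 members. Without replicate 2 of pre-iPSCs, the pre-iPSC arm is replicate 1 alone, a library that stands apart, and the spread comes from the other cell types. Then 2 members passed between pre-iPSCs and MEFs, Dpy30 (-2.07, edgeR adjusted p = 0.00471) and Rbbp5 (-1.37, edgeR adjusted p = 0.0431), and 1 between iPSCs and pre-iPSCs, Dpy30 (1.70, edgeR adjusted p = 0.0281), where 4589 and 2146 of all promoters were called. Without replicate 1 of pre-iPSCs, 0 passed with edgeR.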

How the data were processed

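The authors aligned ChIP-seq reads to mm9 with Bowtie 1.0.1, kept unique reads, moved them by 73 bp to the dyad and used GeneTrack for nucleosome calls, each deposited with its count of reads. They aligned RNA-seq reads with TopHat 2.0.4 and computed the deposited FPKM with Cuffdiff (Cufflinks 2.0.2), in 2 tables with 1 library per cell type each. A library whose title marks it as a repeat is called replicate 2.

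Reads of calls within 1000 bp of the TSS were summed. Calls hold 12007350 to 15222040 reads per library of a mark and 67362868 to 108211816 of H3. FPKM does not give RNA depth. A gene entered the RNA test at a mean FPKM of 0.5 or more. That test was limma 3.58.1 with trend, and log2(FPKM + 1) understates changes of low genes. For promoter counts, quasi-likelihood fits of edgeR 4.0.16 used TMM after filterByExpr, with DESeq2 1.42.0 as an alternative. P-values are two-sided and Benjamini-Hochberg adjusted over all features. An exact permutation test of 2 against 2 cannot go below 0.33 and was not used. Fits were checked on simulated data.

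Other H3K4 genes are named where they pass with at least a 2-fold change (at most 8, largest first). Members, lists and tests were chosen with earlier results of these data known. An H3K4me3 island joins neighbouring 1000-bp windows with 6 reads or more, bridging 1 weaker window, and needs 60 reads in all. Sequences come from the NCBIM37 (mm9) genome and start sites from GENCODE M1. R 4.3.3 and Python 3.11.15 were used. Other windows, scalings, pseudocounts, filters and samples left out were tried as alternatives. The second start of Dpy30 and the removal of chromosome medians were added after seeing the data.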

Additional observations from a re-analysis of the deposited data

How the results depend on the processing

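Of the members' RNA differences under the alternatives, 276 kept their direction and their side of the threshold, 15 lost it, 8 gained it and 13 changed sign. Some alternatives leave the difference itself unchanged, such as no trend, no filter, no block, or leaving out a library of the cell type not compared. These counts are therefore not a tally of independent checks. After quantile normalization 2 members passed between pre-iPSCs and MEFs, Wdr5 and Dpy30, and 1976 of all 12401 genes did. Leaving out 1 library at a time, the members passing ranged from 0 to 1 between pre-iPSCs and MEFs, from 0 to 2 between iPSCs and pre-iPSCs, from 0 to 5 between iPSCs and MEFs, and from 0 to 1 for pre-iPSCs against the mean of the others. Kdm5b passed between iPSCs and pre-iPSCs without replicate 1 or replicate 2 of MEFs (1.11, limma adjusted p = 0.0293 and 0.0288). Where 1 library is left out, its cell type has 1 library, assumed to vary like the others. The cause was not tested.

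Changes of sign were among small differences. Leaving out 1 library, the difference between pre-iPSCs and MEFs ranged from -0.11 to 0.28 for Ash2l, from -0.30 to 0.23 for Rbbp5 and from -0.052 to 0.11 for Cxxc1, that of Dpy30 between iPSCs and pre-iPSCs from -0.64 to 0.93, and that of Kdm5a between iPSCs and MEFs from -0.32 to 0.032. With chromosome medians removed, Rbbp5 was at 0.057 between pre-iPSCs and MEFs, and Cxxc1 and Kdm5a at 0.23 and 0.092 between iPSCs and MEFs. After quantile normalization, which moved the median of all genes in that comparison from -0.14 to 0.03, they were at 0.22 and 0.030.

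For H3K4me3, 1 member, Rbbp5, passed between iPSCs and MEFs with unique reads and no TMM, and leaving out 1 library gave 0 to 1. The scaling to unique reads without TMM called 3212 of 17644 promoters between iPSCs and MEFs. At its second start Dpy30 was at -0.71 between pre-iPSCs and MEFs and at -0.47 between iPSCs and MEFs. For H3, leaving out 1 library gave 0 to 2 members between pre-iPSCs and MEFs and 0 to 1 between iPSCs and pre-iPSCs. For H3K27me3 it gave 0 throughout.

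Counts of calls over all features, which stand behind the percentages, also moved. Leaving out 1 library, the RNA calls ranged from 1025 to 2869 between pre-iPSCs and MEFs (2033 with all), from 36 to 2184 between iPSCs and pre-iPSCs (1069), from 655 to 3692 between iPSCs and MEFs (3219) and from 140 to 2395 for pre-iPSCs against the others (1047, or 570 with no filter). Between iPSCs and MEFs, H3K4me3 had 2433 calls with edgeR, 119 with DESeq2 and 898 in a 500-bp window, and H3K27me3 had 1167, 19 and 175. Between pre-iPSCs and MEFs H3K4me3 had 681, 31 and 276, or 1366 with unique reads and no TMM, and H3K27me3 had 843, 45 and 103. Between iPSCs and pre-iPSCs H3K4me3 had 0 calls, 19 with no filter and 21 with unique reads and no TMM, and H3K27me3 had 83, and 0 with DESeq2. Leaving out 1 library, H3K4me3 calls ranged from 98 to 905 between pre-iPSCs and MEFs, from 0 to 70 between iPSCs and pre-iPSCs, from 600 to 2286 between iPSCs and MEFs and from 0 to 117 for pre-iPSCs against the others (45). The H3K4me3 lows of 98 and 600 were without replicate 1 of MEFs, and the 70 was without replicate 2 of iPSCs. H3K27me3 calls ranged from 396 to 860, from 9 to 129 and from 469 to 1190 in the first 3 comparisons. The cause was not tested.

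Same-numbered samples did not deviate together in every pair (MEFs with pre-iPSCs, MEFs with iPSCs and pre-iPSCs with iPSCs gave r of 0.346, -0.205 and 0.112 for RNA, -0.043, 0.007 and 0.115 for H3K4me3, -0.010, -0.047 and 0.057 for H3K27me3, and -0.031, 0.008 and 0.795 for H3), so ChIP was fitted without a block. The 0.795 is that of the H3 libraries that stand apart. For RNA, same-numbered libraries share a deposited table, so the table, and with it the number, was a term whatever these r. Without this replicate block, Kdm1a lost its call between iPSCs and MEFs (1.15, adjusted p = 0.0667), and 3042 in place of 3219 genes were called. With the block, 0 members passed for H3K4me3, H3K27me3 or H3. The block gave 10 in place of 0 promoter calls of H3K4me3, and 42 in place of 83 of H3K27me3, between iPSCs and pre-iPSCs. With 2 samples per cell type, and 1 to 17 reads of H3K27me3 at a member, the depth limits what the tests can call.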
